A study of Homo sapiens with 6 samples.

Results

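The genes described here are 10 genes of cornified envelope formation and epithelial defence: the cornified envelope precursors SPRR1A, SPRR1B, SPRR3 and IVL, the S100 genes S100A7, S100A8 and S100A9, the serpins SERPINB3 and SERPINB4, and the defensin DEFB1. They were measured in the human bladder cancer line RT-112 after transient silencing of PPP2R2A, which encodes a regulatory subunit of protein phosphatase PP2A. All probe sets whose single gene symbol is one of these genes were taken, which gave 14 of the 54675 probe sets on the array and 10 of the 19775 genes with a symbol of their own. The cells received siPPP2R2A_1 (siRNA 1), siPPP2R2A_2 (siRNA 2) or scramble siRNA, with 2 arrays, A and B, for each of the 3 groups. In all groups the siRNA was given at 50 nM with Lipofectamine RNAiMAX to cells plated at 50% confluence, the transfection was repeated after 24 h, and RNA was isolated 24 h later. The design describes the arrays of a group as technical duplicates of 1 cell line, so the p-values below measure the spread between such duplicates and not that between independent cultures.

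The cornified envelope is the protein shell that replaces the plasma membrane of terminally differentiating squamous cells. Transglutaminases cross-link involucrin (IVL) and the small proline-rich proteins (SPRR) into it. The S100 and SPRR genes and IVL lie together in the epidermal differentiation complex. S100A8 and S100A9 form the heterodimer calprotectin, which binds zinc and manganese and is abundant in neutrophils as well as in stressed squamous epithelium. SERPINB3 and SERPINB4, the squamous cell carcinoma antigens, inhibit proteases inside and outside the cell, and DEFB1 is an antimicrobial peptide made constitutively by epithelia, the urinary tract included. Normal urothelium is not a squamous tissue, and the SPRR, IVL and S100 genes and SERPINB3 and SERPINB4 are known from squamous epithelia.

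The values are signal intensities on a linear scale, and a fold or log2 change below is a difference of log2(signal + 1). A probe set's signal is not comparable with that of another probe set, so only groups were compared. The targeted gene was lower with both siRNAs. On its brightest probe set PPP2R2A had signals of 336 and 397 with siRNA 1, 510.0 and 533 with siRNA 2, and 1381 and 1589 with scramble. The log2 change was -2.02 with siRNA 1 (limma, adjusted p = 0.0403) and -1.51 with siRNA 2 (adjusted p = 0.0461). Another PPP2R2A probe set had 72.4 and 109 with siRNA 1, 105 and 112 with siRNA 2, and 446 and 434 with scramble. A further one had 334 and 221 with siRNA 1, on either side of scramble (287 and 281), and 179 and 272 with siRNA 2. The last was below the median on every array. Of 18 urothelial and epithelial marker genes on the array, 14 were above the array median on all 6 arrays, and the uroplakin UPK3A was below it on all of them. Of the 16 epithelial markers tested, 13 were below 0 with siRNA 2, with a median log2 change of -0.29, and 10 with siRNA 1, with a median of -0.09. None was called, and at an unadjusted limma p under 0.05, 8 were lower with siRNA 2 and 3 with siRNA 1, and 0 were higher. Their summed signal was between 166698 and 172663 with siRNA 1, 143393 and 150172 with siRNA 2, and 174358 and 180594 with scramble, and its part in the results below was not tested. Of 10 neutrophil and monocyte markers, none was above the median on all arrays and 6 were below it on all, among them PTPRC, MPO, ELANE and CD14. Of 6 lymphocyte markers, none was above it on all arrays. Of 8 fibroblast and endothelial markers, 4 were above it on all arrays (COL1A1, LUM, CDH5 and PECAM1) and COL1A2 and COL3A1 were below it on all. The summed signal of those 8 was between 6925 and 7844 with siRNA 1, 6026 and 6088 with siRNA 2, and 6318 and 6576 with scramble. LUM alone had 6351 and 5518 with siRNA 1, 4546 and 4520 with siRNA 2, and 4975 and 4715 with scramble. The part of this sum in the results was not tested. The 3'/5' signal ratio of the ACTB control probe sets, a sign of RNA integrity, was 6.52 and 7.82 with siRNA 1, 7.47 and 12.4 with siRNA 2, and 5.43 and 5.94 with scramble, and its part in the results was not tested. The ratio of GAPDH lay between 0.943 and 1.02 on every array. The samples are bulk RNA of 1 cell line. Fewer cells that express a gene and less of its RNA per cell cannot be told apart in them.

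A gene was called when its change was at least 1.5-fold and its limma adjusted p, by Benjamini-Hochberg over the 12735 genes above the array median on at least 2 arrays, was under 0.05. Of the 10 genes 9 were tested, 8 of them above the median on all 6 arrays and S100A7 on 5. SERPINB4 was above it on none and was not tested. With siRNA 2, 2 of the 9 were called, SPRR1B and DEFB1, both lower, against 0.157% of all genes called lower and 0.597% called in either direction. With siRNA 1, 0 of the 9 were called, against 0.181% of all genes called lower and 0.393% called in either direction. Between the siRNAs 1 was called, DEFB1, higher with siRNA 1, against 0.0864% of all genes called higher and 0.212% called in either direction. At an unadjusted p under 0.05, 5 of the 9 were lower with siRNA 1 and 8 with siRNA 2, against 6.65% and 8.76% of all genes, and 6 of the 9 were higher with siRNA 1 than with siRNA 2, against 9.16%. When any 1 of the 6 arrays was left out, 0 of all genes were called in any comparison, PPP2R2A included, while 1461 to 2397 genes had an unadjusted limma p under 0.05. The median log2 change of the 9 was -0.51 with siRNA 1 and -1.01 with siRNA 2, and that of all genes was 0.01 and 0.02. The 2 comparisons share the scramble arrays.

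**Figure D1:**
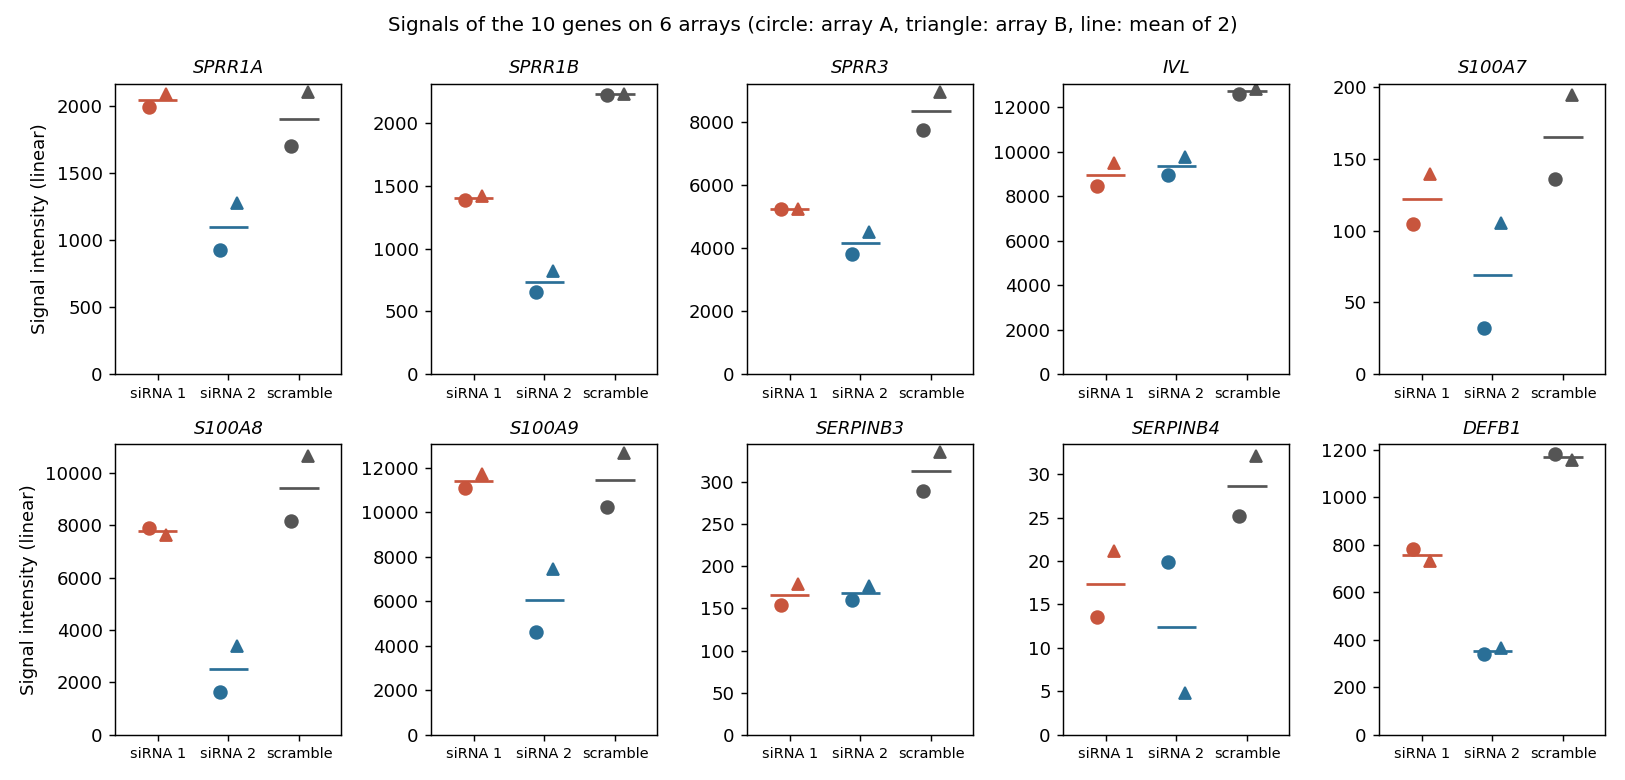
Linear signal intensity (y axis, from 0) of the brightest probe set of each of the 10 genes on the 2 arrays of siRNA 1, siRNA 2 and scramble (x axis), with circles for array A, triangles for array B and a line at the mean. The siRNA 2 arrays lie below both scramble arrays in every panel, while for SPRR1A and S100A9 the siRNA 1 arrays lie within the scramble range.

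All 4 cornified envelope precursors had lower signals with siRNA 2 than with scramble, and 1 of the 4 was called. SPRR1B, whose protein is cross-linked into the envelope, had signals of 1391 and 1419 with siRNA 1, 655 and 819 with siRNA 2, and 2225 and 2237 with scramble. The 3 groups did not overlap, with siRNA 2 lowest and siRNA 1 between. It fell by 1.61 on the log2 scale with siRNA 2 (SE 0.13, 3.04-fold, limma adjusted p = 0.0461). With siRNA 1 the change was -0.67 (adjusted p = 0.127), and siRNA 1 minus siRNA 2 was 0.94 (adjusted p = 0.0795). SPRR3, expressed in the suprabasal layers of internal squamous epithelia, had 5230.4 and 5245 with siRNA 1, 3793 and 4506 with siRNA 2, and 7739.6 and 8944 with scramble on its brighter probe set. Its groups were in the same order without overlap, and its changes of -0.67 (adjusted p = 0.127) and -1.01 (adjusted p = 0.0559) did not pass. SPRR1A, the close relative of SPRR1B, had 1993 and 2089 with siRNA 1, 924 and 1276 with siRNA 2, and 1701 and 2107 with scramble. Both siRNA 1 arrays lay between the scramble arrays and both siRNA 2 arrays below them, and the change was 0.11 with siRNA 1 (adjusted p = 0.828) and -0.80 with siRNA 2 (adjusted p = 0.127). IVL, the scaffold on which the envelope is assembled, had 8443 and 9493 with siRNA 1, 8964 and 9749 with siRNA 2, and 12607 and 12841 with scramble. Here both siRNAs lay below scramble and overlapped each other. IVL had changes of -0.51 (adjusted p = 0.133) and -0.44 (adjusted p = 0.111), and siRNA 1 minus siRNA 2 was -0.06, with a 95% interval of -0.32 to 0.20.

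The 4 precursor genes lie in 1 gene cluster with the S100 members, and all of these had lower signals with siRNA 2 than with scramble. The 250 bases before the transcription start of the 4 precursor genes are shown. They are RefSeq sequences of build GRCh38.p14, all on the plus strand of chromosome 1, at chr1:152983831-152984080 for SPRR1A, chr1:153030953-153031202 for SPRR1B, chr1:153001499-153001748 for SPRR3 and chr1:152908296-152908545 for IVL. Capitals mark the letters TGANTCA, the AP-1 motif, searched on both strands.
SPRR1A: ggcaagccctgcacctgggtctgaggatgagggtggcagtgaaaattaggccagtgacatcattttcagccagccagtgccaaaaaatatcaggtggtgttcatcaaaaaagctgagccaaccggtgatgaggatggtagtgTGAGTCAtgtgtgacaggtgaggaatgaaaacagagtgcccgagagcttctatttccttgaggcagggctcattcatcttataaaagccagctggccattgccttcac
SPRR1B: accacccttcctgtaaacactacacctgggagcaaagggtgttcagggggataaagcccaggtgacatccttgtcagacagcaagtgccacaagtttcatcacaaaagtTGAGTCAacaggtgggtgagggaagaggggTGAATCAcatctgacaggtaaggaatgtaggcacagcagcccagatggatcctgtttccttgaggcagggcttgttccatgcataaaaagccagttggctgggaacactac
SPRR3: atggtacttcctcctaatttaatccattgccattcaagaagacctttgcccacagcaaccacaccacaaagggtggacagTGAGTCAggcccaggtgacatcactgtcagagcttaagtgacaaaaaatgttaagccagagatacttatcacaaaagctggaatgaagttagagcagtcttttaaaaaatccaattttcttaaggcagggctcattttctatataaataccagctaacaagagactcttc
IVL: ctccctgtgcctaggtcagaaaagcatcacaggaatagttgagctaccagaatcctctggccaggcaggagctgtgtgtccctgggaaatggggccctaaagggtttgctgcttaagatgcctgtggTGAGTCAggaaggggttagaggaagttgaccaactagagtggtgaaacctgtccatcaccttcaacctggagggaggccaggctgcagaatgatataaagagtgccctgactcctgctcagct
SPRR1B has 2 matches, 141 and 111 bases before the start, and the other 3 have 1 each, at 108 bases in SPRR1A, 170 in SPRR3 and 123 in IVL. The members with a window are 9 of the 10, SERPINB4 included and DEFB1 not, and they have 11 windows, as S100A8 has 3. The motif is in 4 of these 11 windows, against 6.57% of the 35116 RefSeq windows of this length, and 0.402% hold 2 or more. No match was found in the windows of the S100 and serpin members, and those of them tested also had lower signals with siRNA 2. TATAAA is in 7 of the 11 windows and in 10.7% of all, and GGAA, the ETS core, is in 11 of the 11 and in 92.7% of all. The S100A8 windows overlap, and the same TATAAA counts at 126 and at 29 bases before different S100A8 starts. By gene, the AP-1 motif is in 4 of the 9, TATAAA in 6 and GGAA in 9. The 3 motifs were searched on both strands, and a window counts once however many matches it holds. A match describes letters and not a bound site.

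The S100 genes had the lowest signals with siRNA 2, and none of the 3 was called. S100A8, a subunit of calprotectin, had signals of 7892 and 7637 with siRNA 1, 1645 and 3378 with siRNA 2, and 8177 and 10635 with scramble. Both siRNA 2 arrays lay below all others, and siRNA 1 lay just below scramble. The change with siRNA 2 was -1.98 on the log2 scale (SE 0.37, limma adjusted p = 0.0846), with siRNA 1 -0.26 (adjusted p = 0.769), and between the siRNAs 1.72 (adjusted p = 0.125). S100A9, the other calprotectin subunit, had 11096 and 11721 with siRNA 1, 4617 and 7469 with siRNA 2, and 10249.6 and 12653 with scramble. Its siRNA 1 arrays lay within the scramble range and its siRNA 2 arrays below it, with changes of 0.00 (adjusted p = 0.998) and -0.96 (adjusted p = 0.146). S100A7, psoriasin, an antimicrobial zinc-binding protein, had 105 and 139 with siRNA 1, 32.2 and 105 with siRNA 2, and 136 and 194 with scramble. The siRNA 2 duplicates differed more for S100A7 than for the other S100 genes, by 1.68 on the log2 scale, against 1.04 for S100A8 and 0.69 for S100A9. Without siRNA 2 array A, the change with siRNA 2 was -0.62 for S100A7 in place of -1.46, -1.46 for S100A8 and -0.61 for S100A9. The S100A8 change with siRNA 1 was -0.45 without scramble array A and -0.07 without scramble array B. The summed signal of the 10 neutrophil and monocyte markers, a list that also holds S100A12, was 424 and 567 with siRNA 1, 381 and 415 with siRNA 2, and 547 and 552 with scramble, and its part in the result was not tested.

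SERPINB3 had lower signals with both siRNAs than with scramble on both of its probe sets, which differed in how the siRNAs compared. Its brighter probe set had signals of 153 and 179 with siRNA 1, 160.0 and 177 with siRNA 2, and 289 and 335 with scramble. Both siRNAs lay below scramble without overlap. The changes were -0.91 with siRNA 1 (limma adjusted p = 0.0807) and -0.89 with siRNA 2 (adjusted p = 0.0654), neither called, and siRNA 1 minus siRNA 2 was -0.02 with a 95% interval of -0.37 to 0.33. The second probe set had 60.8 and 90.2 with siRNA 1, 44.1 and 33.5 with siRNA 2, and 126 and 157 with scramble. There the siRNA 2 arrays lay below the siRNA 1 arrays, and siRNA 1 minus siRNA 2 was 0.93 (limma over all probe sets, adjusted p = 0.215). This second probe set was above the array median on only 3 arrays and below it on both siRNA 2 arrays, so this difference rests on low signals. The mean of both probe sets gave 0.45. SERPINB4 had signals of 13.5 and 21.1 with siRNA 1, 19.9 and 4.79 with siRNA 2, and 25.2 and 32.0 with scramble, all below the array median. A probe set annotated to both serpins, which was outside the set, had 106 and 72.5 with siRNA 1, 119 and 116 with siRNA 2, and 124 and 201 with scramble.

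The serpins are neighbours on chromosome 18 with near-identical sequence. A probe set with an _x_at or _s_at suffix, as all those of SERPINB3 and SERPINB4 here, may bind both transcripts. The 250 bases before their starts are shown for this likeness, from RefSeq build GRCh38.p14, both on the minus strand, at chr18:63661894-63662143 for SERPINB3 and chr18:63644257-63644506 for SERPINB4. Capitals mark the bases that differ.
SERPINB3: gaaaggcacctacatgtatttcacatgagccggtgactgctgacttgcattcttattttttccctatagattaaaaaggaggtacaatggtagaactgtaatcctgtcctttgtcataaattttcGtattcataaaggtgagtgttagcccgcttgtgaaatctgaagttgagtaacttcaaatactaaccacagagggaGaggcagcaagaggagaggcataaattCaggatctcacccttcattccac
SERPINB4: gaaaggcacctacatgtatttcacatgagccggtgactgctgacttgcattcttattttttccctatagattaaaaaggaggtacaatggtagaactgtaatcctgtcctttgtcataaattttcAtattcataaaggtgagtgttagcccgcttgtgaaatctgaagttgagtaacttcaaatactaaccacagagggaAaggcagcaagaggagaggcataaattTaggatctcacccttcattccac
The windows differ at 3 of 250 bases, an identity of 98.8%. They lie before the transcription start, and probe and transcript sequences were not compared. The windows therefore do not show what the probe sets bind.

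DEFB1, on chromosome 8, was the member whose siRNA groups differed in the test. Its signals were 782 and 734 with siRNA 1, 341 and 365 with siRNA 2, and 1181 and 1158 with scramble. The 3 groups did not overlap, and the duplicates of each lay close together. DEFB1 fell by 1.73 on the log2 scale with siRNA 2 (SE 0.08, 3.31-fold, limma adjusted p = 0.0385). With siRNA 1 the change was -0.63 (adjusted p = 0.0807), and siRNA 1 minus siRNA 2 was 1.10 (SE 0.08, adjusted p = 0.0467). Over 17 alternative settings the adjusted p with siRNA 2 ranged between 4.1e-05 and 0.196 for DEFB1 and between 6.3e-05 and 0.196 for SPRR1B, under 0.05 in 5 of them for each.

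**Figure D2:**
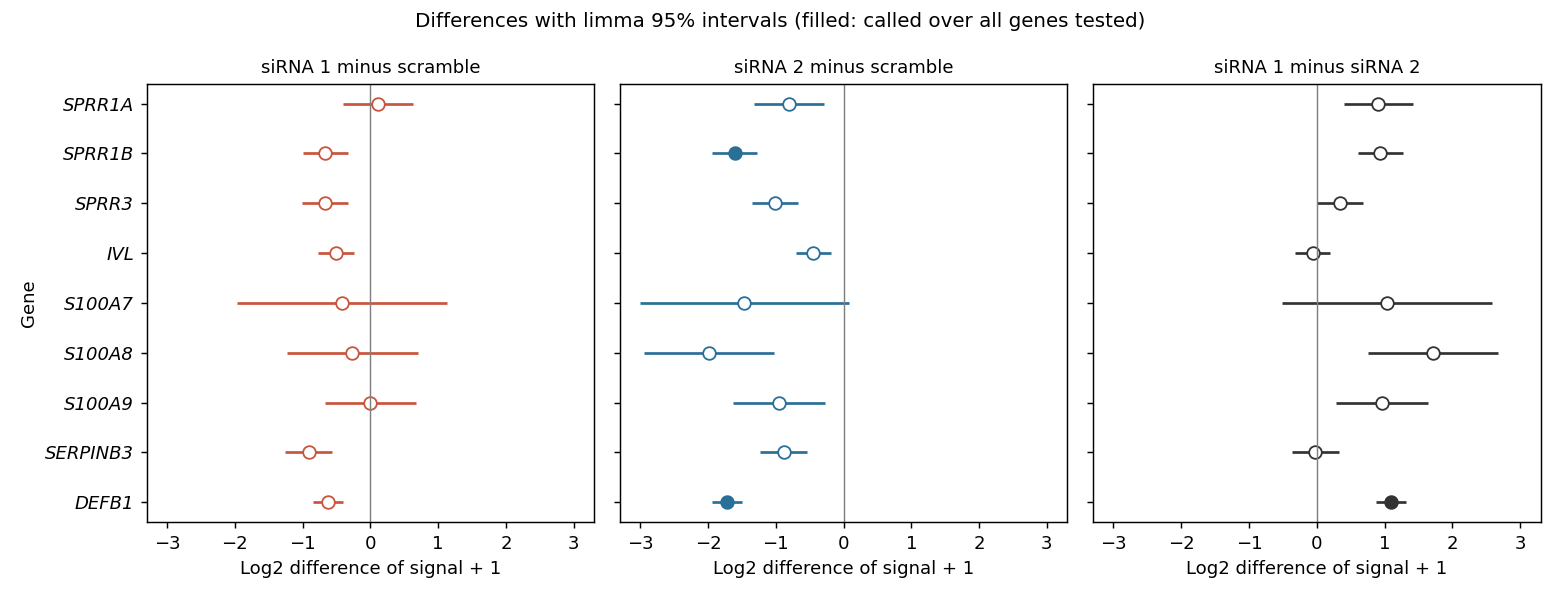
Log2 difference of signal + 1 (x axis) of the 9 tested genes (rows) for siRNA 1 minus scramble, siRNA 2 minus scramble and siRNA 1 minus siRNA 2, with limma 95% intervals and filled points where a gene was called. The filled points are SPRR1B and DEFB1 with siRNA 2 and DEFB1 between the siRNAs.

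Considered over the arrays, 6 of the 9 genes had both siRNA 1 arrays below both scramble arrays, against 22.7% of all genes, and 9 of 9 had both siRNA 2 arrays below them, against 24% of all genes. Both siRNA 1 arrays lay above both siRNA 2 arrays for 6 of the 9, against 24.2% of all genes. DEFB1, S100A8, SPRR1B and SPRR3 had siRNA 2 below siRNA 1 and siRNA 1 below scramble with no overlap, an order held by 3.27% of all tested genes. When limma's prior variance was allowed to follow the mean intensity, 4 of the 9 were called lower with siRNA 1 (SPRR1B, SPRR3, SERPINB3 and DEFB1), against 0.974% of all genes. With siRNA 2 it was 7, against 1.41%, and between the siRNAs 5 were called higher with siRNA 1 (SPRR1A, SPRR1B, S100A8, S100A9 and DEFB1), against 1.63%. IVL had a limma adjusted p = 0.00433 there with siRNA 1 but did not reach 1.5-fold.

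Of the 4 genes with 2 probe sets, S100A8 had probe sets with similar changes in both comparisons. Its second probe set had changes of -0.22 with siRNA 1 and -1.90 with siRNA 2. The second SPRR1A probe set had changes of -0.23 and -0.80, and the second SERPINB3 probe set -0.91 and -1.84. The second SPRR3 probe set had signals of 246 and 391 with siRNA 1, 92.2 and 201 with siRNA 2, and 84.5 and 236 with scramble, so its change of 1.13 with siRNA 1 was opposite in sign to that of the brighter one, and with siRNA 2 it was -0.05. Averaging both SPRR3 probe sets gave 0.23 with siRNA 1 and -0.53 with siRNA 2. Of the 14 member probe sets, 7 have an _x_at or _s_at suffix, among them both of SPRR3 and the second of SPRR1A.

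**Figure D3:**
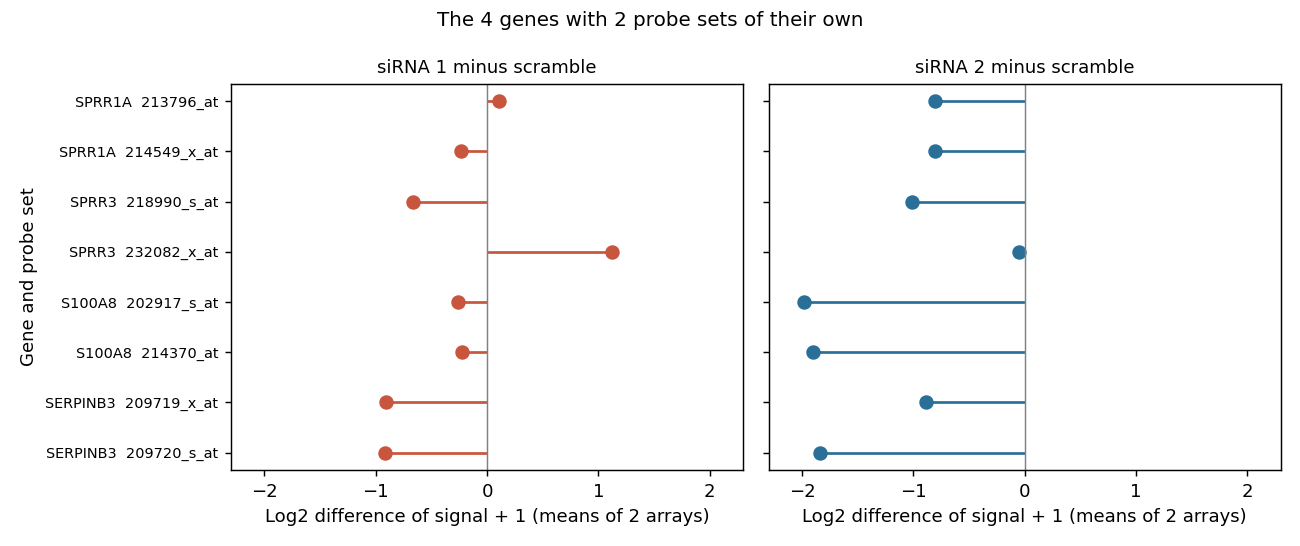
Log2 difference of signal + 1 (x axis, means of 2 arrays per group) for both probe sets of SPRR1A, SPRR3, S100A8 and SERPINB3 (rows), siRNA 1 minus scramble on the left and siRNA 2 minus scramble on the right. The second SPRR3 probe set alone lies well above 0 with siRNA 1.

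Genes of related function were taken from 6 further lists. Of 17 other tested cornified envelope and epidermal differentiation genes, 10 were below 0 with siRNA 1 and 14 with siRNA 2, with medians of -0.10 and -0.29. PPL, periplakin, a plakin that links the envelope to keratin filaments, rose by 0.87 with siRNA 1 (limma adjusted p = 0.0489). Its signals were 3669 and 3872 with siRNA 1, 3307 and 3459 with siRNA 2, and 2046 and 2091 with scramble, and its change of 0.71 with siRNA 2 did not pass (adjusted p = 0.0546). SPRR2G, another small proline-rich gene, had signals of 103 and 154 with siRNA 1, 70.4 and 72.6 with siRNA 2, and 16.4 and 46.6 with scramble. Both siRNAs lay above scramble without overlap, opposite in direction to SPRR1B and the brighter SPRR3 probe set. SPRR2G was below the array median on both scramble arrays (medians 70.9 and 76.2) and passed the filter only through siRNA arrays. Its change of 2.15 with siRNA 1 was the largest of the list and was not called (limma adjusted p = 0.175). None of the list was called with siRNA 2, where SPRR2G had 1.33 (adjusted p = 0.244) and TGM5, a transglutaminase, -0.81. Of 6 other tested genes that lie among the members on chromosome 1, none was called and 3 were below 0 with each siRNA. Their signals were low, between 16.4 (SPRR2G) and 220 (S100A12), with array medians of 69.3 to 76.2. That limits what they show of the region.

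Of 12 other S100 genes, none was called in any comparison, with medians of -0.05 with siRNA 1 and -0.16 with siRNA 2. S100A7A had -0.76 and S100A4 0.28 with siRNA 1, and S100A12 had -0.66 and S100A2 -0.46 with siRNA 2. The signals of S100A7A were low, 51.5 and 39.3 with siRNA 1 and 71.3 and 83.4 with scramble. Of 4 other clade B serpins none was called. SERPINB13 had -0.54 with siRNA 1 and -0.42 with siRNA 2, and SERPINB9 had -0.45 and -0.47. The SERPINB9 groups were low and overlapped, at 35.6 and 53.7 with siRNA 1, 25.7 and 71.8 with siRNA 2, and 47.1 and 76.3 with scramble. Of 12 defence peptides and antiproteases none was called. With siRNA 2 the elastase inhibitor PI3 had -1.04 and DEFB124 0.81. KLK7, a desquamation protease, had -1.49 and HAMP 0.80 with siRNA 1. The scramble signals of KLK7 (43.9 and 133), HAMP (44.6 and 127) and DEFB124 (32.5 and 119) lay on either side of the array medians, 70.9 and 76.2. Their limma intervals spanned both signs, at -3.33 to 0.35 for KLK7, -0.80 to 2.40 for HAMP and -1.32 to 2.94 for DEFB124. That of PI3 was -1.36 to -0.73. The PI3 signals with siRNA 2, 50.7 and 61.8, were below the medians of those arrays, 75.2 and 69.3. PI3 passed the filter only through the siRNA 1 and scramble arrays.

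Of 34 transcription factors of squamous differentiation, none was called. GRHL3 had 0.87 and POU2F3 -0.78 with siRNA 1, and ZNF750 had -0.75 and PRDM1 -0.66 with siRNA 2. Of 5 tested receptors and sensors of S100A8 and S100A9, CD36, a scavenger receptor, was called. CD36 fell by 1.03 with siRNA 2 (limma adjusted p = 0.0461), with signals of 1191 and 1167 with siRNA 1, 537 and 529 with siRNA 2, and 1091 and 1081 with scramble. Only its siRNA 2 arrays stood below the others, and siRNA 1 minus siRNA 2 was 1.14 (adjusted p = 0.0467). With siRNA 1 none was called, with TLR4 at -0.42 and LY96 at 0.16.

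Between the siRNAs, CD36 was the 1 gene of these 6 lists that was called. The largest differences of siRNA 1 minus siRNA 2 in the other lists, none called, were 0.81 for SPRR2G and 0.69 for RHCG among the cornified envelope genes and -1.12 for S100A7A and 0.93 for S100A12 among the S100 genes. Among the serpins they were -0.25 for SERPINB8 and -0.12 for SERPINB13, and among the defence genes -1.46 for KLK7 and 0.80 for LCN2. Among the transcription factors they were 0.78 for GRHL3, a grainyhead factor of the epidermal barrier, and 0.74 for PRDM1.

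**Figure D4:**
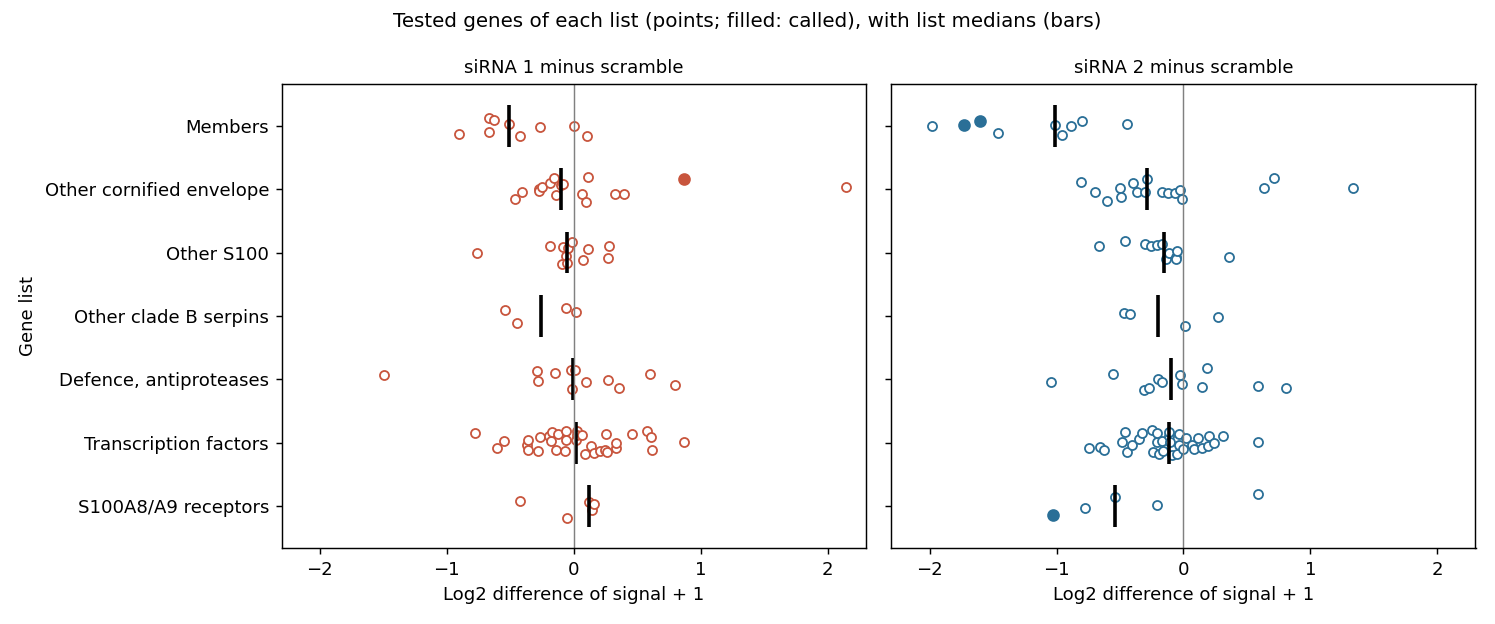
Log2 difference of signal + 1 (x axis) of each tested gene (points, filled where called) in the member set and 6 related lists (rows), with a bar at each median, for siRNA 1 minus scramble and siRNA 2 minus scramble. The member medians lie at -0.51 and -1.01.

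Among 777 other genes whose group means spanned at least 1 on the log2 scale, the 5 with the profile most like the mean of the 9 members were SPINK4 (Pearson r = 0.995 over 6 arrays), PI3 (0.978), LATS2 (0.972), CST2 (0.959) and EPB41L4A (0.956). These correlations describe 6 arrays in 3 groups and were chosen for their size. PI3 (50.7 and 61.8) and CST2 (53.4 and 65.5) were below the array median on both siRNA 2 arrays, and SPINK4 on array A. SPINK4, a Kazal-type protease inhibitor, had 175 and 168 with siRNA 1, 52.8 and 109 with siRNA 2, and 251 and 309 with scramble. LATS2, a Hippo pathway kinase, had 1415 and 1272 with siRNA 1, 655 and 893 with siRNA 2, and 1524 and 1576 with scramble. Neither gene was called with siRNA 2 (adjusted p = 0.0889 for SPINK4 and 0.0776 for LATS2).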

How the data were processed

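RNA of 6 samples was hybridised to Affymetrix arrays, 1 per sample. The deposited values are linear signal intensities per probe set, made by the authors with Affymetrix Expression Console, per the submitters' processing notes; the version and summary method were not given in the sources used here. No detection calls came with the values. The mean of each array without the top and bottom 2% was 500.07 to within rounding, and array medians were 69.3 to 76.2.

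Symbols came from the platform annotation. Of 54675 probe sets, 41091 had 1 symbol, 1801 several and 11721 none, and 62 were controls; 41037 of the first matched RefSeq. log2(signal + 1) was computed, the probe set with the highest mean log2 signal stood for its gene, and 12735 genes above the array median on at least 2 arrays were fitted in 3 groups with limma 3.58.1 (R 4.3.3, lmFit and eBayes, 3 residual degrees of freedom), with two-sided p-values adjusted by Benjamini-Hochberg. The number of arrays limits the precision. On simulated data of 12735 genes, the fit for siRNA 2 minus scramble called 8.96% of 1.5-fold, 49.3% of 2-fold and 95.5% of 4-fold changes. In it 66 or 67 genes per fold were changed, equally with both siRNAs, with a normal spread. In the data the siRNAs differ and the number of changed genes is not known, so these rates need not hold there.

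Members, lists, tests and alternatives were chosen with earlier results of these data known. All members are named; of each related list, genes called in a comparison (at most 4) or else the 2 with the largest change; and the 5 genes most like the members. Alternatives were quantile normalization, centring on array medians, a pseudocount of 16, other filters, a replicate block, an intensity trend, other choices of probe set, the compared arrays alone and leaving out each array. The main fit did not pair the arrays by the letters A and B.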

Additional observations from a re-analysis of the deposited data

Results flagged for a closer look

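DEFB1 differed between the siRNAs by the test of the difference itself. Its mean signal was 758 with siRNA 1 and 353 with siRNA 2, and siRNA 1 minus siRNA 2 was 1.10 on the log2 scale (limma adjusted p = 0.0467), with both siRNA 1 arrays above both siRNA 2 arrays. Over 17 alternative settings the limma adjusted p ranged between 0.000462 and 0.215 and was under 0.05 in 4. The difference kept its sign in 17, but most of these settings do not change the log2 estimate.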

How the results depend on the processing

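The direction of DEFB1 and SPRR1B with siRNA 2 held in all 17 alternatives, but their calls did not. Most of these settings, such as the filters, the block and the trend, leave the log2 estimate of these genes unchanged. As their groups did not overlap, leaving out an array could not turn the sign, so the kept direction is no separate support. The calls of members with siRNA 1, with siRNA 2 and between the siRNAs numbered 0, 2 and 1 as reported. Each was 0 without the low-signal filter, with the replicate block, with the mean of probe sets, with every probe set tested, with only the 4 arrays compared, and with arrays centred on their medians, and it ranged from 0 to 0 when each array was left out in turn. At these settings 1398 to 2526 genes had an unadjusted p under 0.05 in limma. With the block the limma adjusted p of DEFB1 was 0.129 with siRNA 2 and 0.157 between the siRNAs. Over all tested genes, the array B minus array A differences of the groups correlated at 0.04, -0.03 and 0.01. The mean of the tested members, each centred on its own mean, was higher on array B than on array A in every group. On arrays A and B it was 0.06 and 0.16 with siRNA 1, -0.93 and -0.39 with siRNA 2, and 0.44 and 0.66 with scramble. Whether the letters pair the arrays cannot be told from these values. A filter on all 6 arrays gave 2, 5 and 2 calls, and the intensity trend gave 4, 7 and 5. Quantile normalization gave 0 between the siRNAs, and a pseudocount of 16 gave 3 with siRNA 2. Calls over all genes with siRNA 2 were 76 as reported, 162 with the pseudocount of 16, 399 with the filter on all arrays, 472 with the trend and 1 with centring; with siRNA 1 they were 50, 65, 244, 299 and 11, and between the siRNAs 27, 30, 289, 362 and 0, with 33 (siRNA 1) and 12 (between the siRNAs) after quantile normalization. Choosing probe sets by their mean linear signal, an alternative added after seeing the data, left 0, 2 and 1 calls. The median with siRNA 2 was -1.36 with the mean of probe sets, where SERPINB3 was -1.36, and ranged from -1.30 to -0.81 when each array was left out; between the siRNAs it ranged from 0.61 to 1.14. The cause of these changes was not tested, except that leaving out an array or fitting 4 arrays leaves fewer residual degrees of freedom.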
